A study of Mus musculus with 12 samples.

Results

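The genes described here are 44 genes of mouse chromosome 2 around Mertk, the gene of a receptor tyrosine kinase that was inactivated in the mutant mice, together with Eif3j2, a close copy on chromosome 18 of the chromosome 2 gene Eif3j1. They make up 45 of the 46095 genes in the count table. They were chosen by name, with the difference between mutant and wild type libraries already known, in order to ask which of them differ in every library, as a stretch of chromosome inherited together with a targeted gene would. The differences between genotypes are therefore given as a description of these libraries and support nothing by themselves. Mertk itself is not among the 45.

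The libraries were bulk RNA-seq of whole pancreas. 6 came from C57BL/6J wild type mice (WT) and 6 from mice lacking both receptors, Axl-/-Mertk-/- (AMKO), all at postnatal day 56. Every mouse, of either genotype, had caerulein pancreatitis. In this model a hormone analogue overstimulates the acinar cells until they injure themselves. It was given as 10 intraperitoneal injections of 100 µg/kg, 1 each hour, and the mice were killed 12 h after the first, so no untreated pancreas enters any value here. The labels name the strain of the wild type mice. The sources used here do not give the strain background of the AMKO mice, the origin of their alleles or the mouse behind each library, so the tests measure the spread between these samples.

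As background, a targeted allele is made in embryonic stem cells of a particular strain and is then crossed into another. Recombination removes the donor strain's chromosome gradually, and the DNA closest to the targeted site is the last to go. Mice that carry the allele can therefore also carry donor versions of neighbouring genes, with their own promoters, splice sites and copy number, which the controls lack. In a comparison of mutant with wild type mice alone, an effect of such linked sequence and an effect of losing the receptor cannot be told apart. In bulk tissue, fewer cells of a type and less RNA per cell cannot be told apart either.

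Library totals ran from 10668637 to 15184371 counts. Summed over 6 acinar marker genes, levels were 145000 to 225000 CPM (counts scaled to a common library total) in WT and 131000 to 245000 in AMKO, as in a pancreas. Axl, the other targeted gene, was 2.69 lower in AMKO on the log2 scale, with a standard error (SE) of 0.18. Of 5 genes of the receptor family and its ligands, edgeR called only Axl, DESeq2 called 1 and limma voom called 2. Mertk had 2.69, 7.13 and 10.5 CPM as the lowest, median and highest of the WT libraries and 4.37, 5.79 and 10.5 in AMKO. These ranges overlapped almost completely. The fitted difference in Mertk was -0.03 (95% interval -0.68 to 0.62), and whole-gene counts cannot tell whether particular exons are missing.

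Of the 45 genes, 44 had enough counts to be fitted. Nusap1, which bundles spindle microtubules in dividing cells, did not pass, with 0 to 12 counts in the WT and 0 to 21 in the AMKO libraries. A gene is called here when its adjusted p is under 0.05 in edgeR's quasi-likelihood test with Benjamini-Hochberg adjustment over all 13743 genes fitted. By that measure 13 of the 44 (29.5%) were called, 4 higher and 9 lower in AMKO. Over all genes fitted, 5.78% were called, 2.41% higher and 3.37% lower. The choice of the genes used this same comparison, so nothing is read from these shares together. Of the 44, 28 were below 0 (63.6%) with a median log2 difference of -0.15, against 50.3% and -0.00 over all genes fitted. The median size, without sign, was 0.27 against 0.17. In 10 of the 44 the 6 AMKO libraries lay wholly outside the range of the 6 WT libraries, 4 above and 6 below, and all 10 were also called. Over all genes fitted the groups did not overlap in 3.54%, 1.24% with AMKO above and 2.3% with AMKO below. The other 3 called genes, Ubr1, Trp53bp1 and Ell3, overlapped. With the WT side reduced to its replicates 4 to 6 the number called was 9, and with replicates 1 to 3 it was 10.

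**Figure D1:**
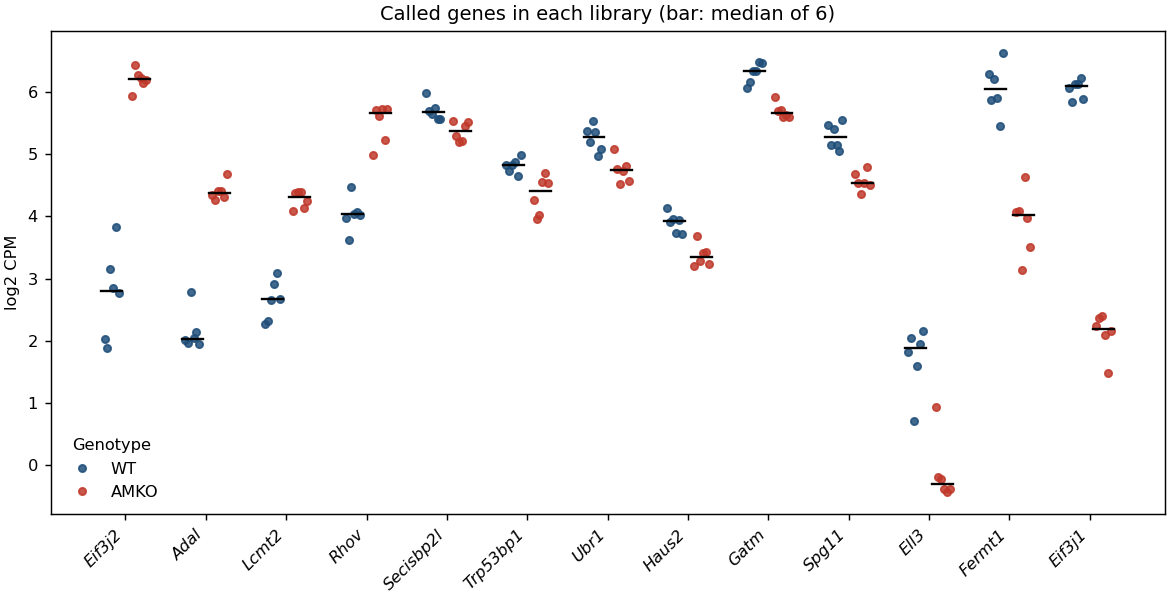
Level of each of the 13 called genes in every library, as log2 CPM with no added count, with WT and AMKO libraries in separate colours and a bar at the median of each genotype. Eif3j1 and Eif3j2 show the widest gaps, and the points of Ubr1, Trp53bp1 and Ell3 overlap.

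The largest differences were those of Eif3j1 and Eif3j2, which went opposite ways. Both encode the j subunit of eIF3, a loosely held part of the translation initiation factor that sits at the decoding centre of the small ribosomal subunit. Eif3j1 lies at chromosome 2, 122028546 to 122056598 on the plus strand (GRCm38), 6.67 Mb before Mertk, and has 8 coding exons. Eif3j2 lies on chromosome 18, at 43475418 to 43477796 on the minus strand, in a single exon with no intron. A comparison of the annotated coding sequences found 786 bases in Eif3j1 and 792 in Eif3j2. All 786 were identical, with 0 substitutions. The 6 additional bases of Eif3j2 repeat a triplet just after the start codon, within a repeat that covers 21 bases in Eif3j1.

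Over the aligned 2379 columns of the transcripts, 2365 were identical (99.4%), with 4 mismatches and 10 gapped columns, and the longest identical run was 1100 bases. A read from within such a run has the same letters in both genes. The sources used here do not say how the counting treated reads that match more than 1 place, so the split between these genes is uncertain.

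Eif3j1 had 57.3 CPM in the lowest WT library, 68.6 at the median and 75.0 in the highest. In AMKO the values were 2.79, 4.56 and 5.27 CPM. The lowest WT library was thus far above the highest AMKO library, and the fitted difference was -3.91 (log2, SE 0.13). Eif3j2 had 3.69, 6.98 and 14.3 CPM in WT and 61.8, 74.2 and 86.5 in AMKO, a difference of 3.33 (log2, SE 0.26). Each AMKO library was high for the chromosome 18 gene and low for the chromosome 2 gene, and each WT library was the reverse. Of the counts given to the pair, Eif3j1 took 84% to 94.3% in the WT libraries and 3.75% to 7.06% in the AMKO libraries.

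The sum of both genes did not separate the genotypes. It was 74.1 ± 10.1 CPM in WT and 78.7 ± 8.46 in AMKO (SD, n = 6 each), with ranges of 61.0 to 89.3 and 66.4 to 91.7. The fitted difference of the sum was 0.09 (log2, SE 0.10), with a 95% interval of -0.12 to 0.30. That interval holds neither the loss seen in Eif3j1 nor the gain seen in Eif3j2.

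**Figure D2:**
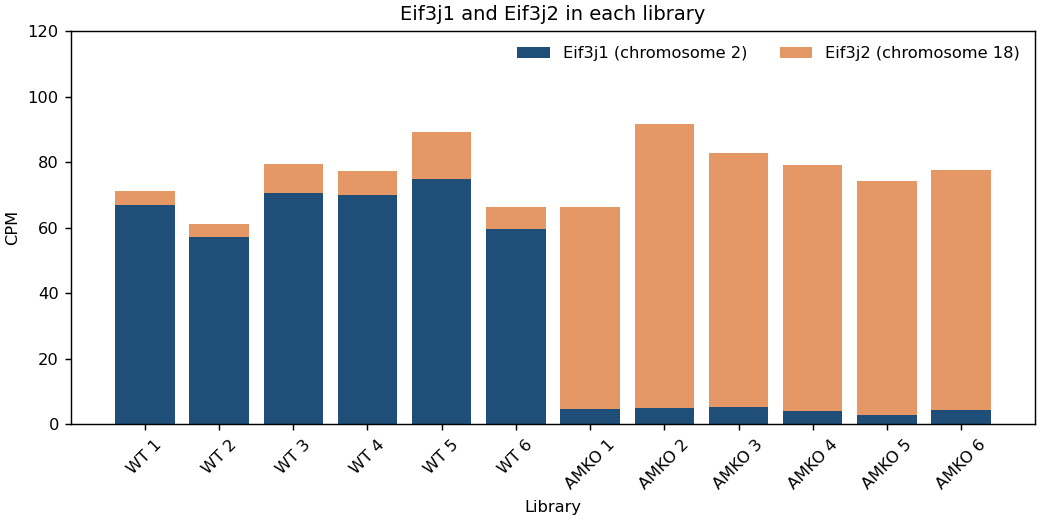
CPM of Eif3j1 and Eif3j2 as stacked bars in each of the 12 libraries, so that a bar's full height is their sum. Eif3j1 is at 57.3 to 75.0 in WT and 2.79 to 5.27 in AMKO, Eif3j2 is the reverse, and the sum overlaps between genotypes.

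Of 12 further eIF3 subunit genes fitted, edgeR called 1, DESeq2 called 2 and limma voom called 4, and 6 had an unadjusted p under 0.05. The gene called by edgeR was Eif3g, an RNA-binding subunit, at 113 ± 6.81 CPM in WT and 150 ± 19.0 in AMKO (SD, n = 6 each), a log2 difference of 0.41 (SE 0.09). The differences of the 12 ran from 0.05 to 0.41, with a median of 0.19, against -0.00 over all genes fitted.

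Adal and Lcmt2, a pair of genes that start head to head, were both higher in AMKO. Adal, at chromosome 2, 121140428 to 121156680 on the plus strand, encodes a deaminase that removes a methylated amine from modified AMP. Lcmt2, at 121128307 to 121140653 on the minus strand, encodes a methyltransferase for wybutosine, a modified base of phenylalanine tRNA. Their exons overlap by 226 bases on opposite strands, and the sources used here do not say whether the counting used strand. Adal had 3.85, 4.06 and 6.85 CPM as the lowest, median and highest of WT and 19.2, 20.8 and 25.7 in AMKO, a log2 difference of 2.24 (SE 0.15). Lcmt2 had 4.81, 6.33 and 8.50 CPM in WT and 17.1, 19.8 and 21 in AMKO, a log2 difference of 1.60 (SE 0.14). For both genes every AMKO library was above every WT library.

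The gene beyond Adal, Zscan29, which encodes a zinc finger protein, had a difference of only 0.27 (log2, SE 0.08) and was not called. On the side of Lcmt2 the nearest gene fitted, Ccndbp1, was at -0.14 (log2, SE 0.09) and was not called either. Farther out on the side of Adal, Ell3 was at -1.77 (log2, SE 0.30). Of other genes of the pathways of Adal and Lcmt2, few were called. None of the 5 other wybutosine genes fitted was called by edgeR, DESeq2 or limma voom, 1 had an unadjusted p under 0.05, and Tyw1, the most abundant, had a difference of -0.16 (log2, SE 0.13). Of 7 other genes of AMP and adenosine handling, 1 was called, Nt5e, the ectoenzyme that makes adenosine from AMP, at -1.42 (log2, SE 0.27).

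The 250 bases before the RefSeq start of Lcmt2 are shown because this gene is part of the head-to-head pair and the stretch holds no annotated UTR base. It lies in an intron of Adal. In all, 7 motifs were searched on both strands. They were the TATA box TATAAA, the CCAAT box, the GC box GGGCGG, the ETS site CCGGAAG, the E-box CACGTG, the full cyclic AMP response element TGACGTCA and its shorter form TGACG, which lies within the full element. The shorter form alone was found, on the other strand, and is in capitals. It occurs in 17.8% of the 32851 upstream windows of the same length in the RefSeq table for GRCm38.p6.
Lcmt2, chr2:121140699-121140948, minus strand, GRCm38.p6: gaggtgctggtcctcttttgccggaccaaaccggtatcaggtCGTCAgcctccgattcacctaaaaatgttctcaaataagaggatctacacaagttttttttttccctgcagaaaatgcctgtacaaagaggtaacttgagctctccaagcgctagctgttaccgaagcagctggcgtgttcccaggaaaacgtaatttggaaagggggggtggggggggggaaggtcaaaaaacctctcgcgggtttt

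Fermt1 and Rhov, genes of cell adhesion and shape, went opposite ways. Fermt1 encodes kindlin-1, which activates integrins in epithelial cells, and lies at chromosome 2, 132904389 to 132945906 on the minus strand. It is the only gene of the set on the far side of Mertk, by 4.21 Mb. Fermt1 had 44.1, 67.3 and 99.2 CPM as the lowest, median and highest of WT and 8.84, 16.3 and 24.9 in AMKO, a log2 difference of -2.13 (SE 0.23). The highest AMKO library stayed below the lowest WT library.

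Among 6 markers of duct epithelium, which can also hold kindlin-1, 2 were called lower. Their summed levels overlapped, at 1960 to 2610 CPM in WT and 1530 to 2200 in AMKO. The part of duct cells in the difference of Fermt1 was not tested. Of 9 other genes of kindlin, talin and integrin adhesion, edgeR called 0, DESeq2 called 1 and limma voom called 1, and 2 had an unadjusted p under 0.05. The most abundant, Itgb1, the beta-1 integrin chain, had a difference of -0.11 (log2, SE 0.07).

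The 250 bases before the RefSeq start of Fermt1 are shown because it has the largest loss among the genes with no near-identical copy. The same 7 motifs were searched, and GGGCGG, the GC box, was the only match, in capitals. It occurs in 32.7% of all the upstream windows.
Fermt1, chr2:132946037-132946286, minus strand, GRCm38.p6: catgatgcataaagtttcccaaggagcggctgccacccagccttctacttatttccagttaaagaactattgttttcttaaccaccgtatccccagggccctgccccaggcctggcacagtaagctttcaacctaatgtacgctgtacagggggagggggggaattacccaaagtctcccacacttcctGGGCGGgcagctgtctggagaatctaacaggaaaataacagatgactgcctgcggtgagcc

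Rhov lies at chromosome 2, 119269201 to 119271272 on the minus strand, 9.43 Mb before Mertk. Its lowest, median and highest levels were 12.3, 16.4 and 22.2 CPM in WT and 31.8, 50.8 and 53.3 in AMKO, a log2 difference of 1.47 (SE 0.15). The 6 AMKO libraries were all above the WT libraries, with replicates 1 and 5 the lowest of the AMKO libraries.

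Spint1, a neighbour of Rhov, encodes HAI-1, the inhibitor that holds the epithelial protease matriptase in check. It had 225, 254 and 284 CPM in WT and 214, 316 and 356 in AMKO, with a log2 difference of 0.23 (SE 0.12), and was not called. The AMKO range enclosed the WT range. AMKO replicates 1 and 5 were at 214 and 250 CPM. The other AMKO libraries, at 309 to 356 CPM, were above every WT library. Of 8 genes of membrane serine proteases, their inhibitors, hepatocyte growth factor and related receptors, 1 was called, Hgfac, a protease that activates hepatocyte growth factor, at 0.43 (log2, SE 0.12).

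The genes called lower by less were of several kinds. Ell3 encodes an elongation factor of RNA polymerase II, at chromosome 2, 121439010 to 121444278. It was at 1.63, 3.67 and 4.45 CPM in WT and 0.733, 0.807 and 1.91 in AMKO, a log2 difference of -1.77 (SE 0.30). These are 20 to 67 counts in the WT and 7 to 31 in the AMKO libraries, and the highest AMKO library, replicate 1, was above the lowest WT library, replicate 3. On the same strand, 65.6% of the exonic bases of Ell3 also belong to Serinc4, which had 40 counts in all 12 libraries together. Against WT replicates 1 to 3 alone Ell3 was no longer called (adjusted p = 0.0674, edgeR).

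Spg11 encodes spatacsin, needed to rebuild lysosomes, and runs from 122053520 to 122118386 on the minus strand, tail to tail with Eif3j1. It was at 33.4, 39.1 and 47.0 CPM in WT and 20.6, 23.2 and 27.9 in AMKO, a log2 difference of -0.74 (SE 0.10), with no overlap. Its exons share 1107 bases with those of Eif3j1 on the opposite strand, 13.8% of the exonic length of Spg11. Of 8 other genes of hereditary spastic paraplegia and of adaptor complexes 4 and 5, edgeR called 0, DESeq2 called 0 and limma voom called 1, and 1 had an unadjusted p under 0.05.

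Gatm encodes the first enzyme of creatine synthesis, an abundant mitochondrial enzyme of the exocrine pancreas, at 122594467 to 122611303. It was at 67.4, 81.3 and 89.6 CPM in WT and 48.6, 50.7 and 60.6 in AMKO, a log2 difference of -0.62 (SE 0.08), with no overlap. Of 8 other genes of creatine synthesis and transport and of arginine and ornithine use, 1 was called, the mitochondrial creatine kinase Ckmt1, at -0.74 (log2, SE 0.16), which itself lies on chromosome 2, 7.34 Mb before Mertk.

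The 4 remaining called genes had the smallest differences. Haus2, a subunit of augmin, which branches microtubules in the spindle, was at 13.2, 15.2 and 17.5 CPM in WT and 9.19, 10.2 and 12.8 in AMKO, a log2 difference of -0.52 (SE 0.11) without overlap. Ubr1 encodes the N-recognin ubiquitin ligase whose loss in people causes exocrine pancreatic insufficiency. It was at 31.5, 39.1 and 46.4 CPM in WT and 23, 26.9 and 33.9 in AMKO, a log2 difference of -0.51 (SE 0.11), and the AMKO range reached into the WT range. Trp53bp1, which guides the repair of broken DNA, was at 25.0, 28.5 and 31.7 CPM in WT and 15.6, 21.3 and 25.9 in AMKO, a log2 difference of -0.46 (SE 0.12), also with overlap, and its exons share 2130 bases with Tubgcp4 on the opposite strand. Secisbp2l, a relative of the protein that reads selenocysteine signals, was at 47.6, 51.2 and 63.7 CPM in WT and 36.9, 41.7 and 46.3 in AMKO, a log2 difference of -0.34 (SE 0.09) without overlap.

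Their calls were also less stable. Over 22 alternative settings Trp53bp1 was not called in 17, Secisbp2l in 12, Ubr1 in 2 and Haus2 in 1. Adal, Lcmt2, Rhov, Fermt1, Eif3j1, Eif3j2, Spg11 and Gatm kept their calls in all of them. Of 15 further genes of the gamma-tubulin ring, augmin and the spindle, edgeR, DESeq2 and limma voom each called 0, and 2 had an unadjusted p under 0.05.

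The other 31 genes fitted were not called. Of these, 12 were above and 19 below 0. In at least 1 of the alternative settings 6 of them were called, among them Tmem62 in 5, Ivd in 4, and Myef2 and Sppl2a in 3 each. The difference farthest from 0 was that of B2m, the light chain shared by class I antigen-presenting molecules. Its libraries were widely spread. In WT replicates 1 to 6 it was at 354, 232, 230.1, 386, 306 and 231 CPM, and in AMKO replicates 1 to 6 at 325, 151, 119.7, 129, 348 and 125. AMKO replicates 1 and 5 were within the WT range, and the other 4 were below it. The fitted difference was -0.54 (log2, SE 0.28), with a 95% interval of -1.15 to 0.07.

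The same libraries stood apart in interferon-stimulated genes, a class that interferon induces, as it does B2m. Summed over 10 such genes, AMKO replicates 1 and 5 had 353 and 333 CPM, the other AMKO libraries 131 to 159.9, and the WT libraries 365 to 1070, and 4 of the 10 genes were called lower. AMKO replicates 1 and 5 also had the highest sums of B and plasma cell markers (166 and 67.8 CPM) and of macrophage markers (371 and 423 CPM) of all 12 libraries. The part of these cells and signals in the values of B2m was not tested. Of 19 other genes of class I presentation that were listed, 13 were fitted. Of these 13, edgeR called 1, DESeq2 called 1 and limma voom called 3, and 2 had an unadjusted p under 0.05. The gene called by edgeR was Erap1, the peptidase that trims peptides, at -0.41 (log2, SE 0.09).

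Fbn1, the fibrillin of the extracellular matrix, was at 74.8, 85 and 122 CPM in WT and 51.4, 71.1 and 107 in AMKO, a log2 difference of -0.27 (SE 0.17). Of 13 other genes of microfibrils and elastic fibres, edgeR, DESeq2 and limma voom each called 0, and 3 had an unadjusted p under 0.05. Snap23, a membrane fusion protein of zymogen granule release, was at 41.6, 59.7 and 67.9 CPM in WT and 44.2, 49.7 and 60.9 in AMKO, a log2 difference of -0.17 (SE 0.12). The AMKO range lay inside the WT range. Of 9 other genes of zymogen granule fusion, SNAREs with Rab proteins and a SNARE regulator, edgeR and DESeq2 called 0 and limma voom called 1, and 1 had an unadjusted p under 0.05.

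The genes not called included several of metabolism. Ivd, an enzyme of leucine breakdown, had a difference of -0.35 (log2, SE 0.10), Galk2, a kinase of galactose sugars, -0.39 (SE 0.19), and Ganc, a glucosidase, -0.24 (SE 0.22). Sord, which turns sorbitol into fructose, had -0.12 (SE 0.12), Dut, which keeps uracil out of DNA, 0.04 (SE 0.26), and Ppip5k1, an inositol pyrophosphate kinase, 0.21 (SE 0.10). Of 10 other genes of branched-chain amino acid breakdown, edgeR called 0, DESeq2 called 1 and limma voom called 1, and 4 had an unadjusted p under 0.05.

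Others act at membranes or in protein turnover. The zinc transporter Slc30a4 had a difference of 0.17 (log2, SE 0.09), the channel kinase Trpm7 -0.17 (SE 0.10), and the intramembrane protease Sppl2a -0.35 (SE 0.12). The adaptor subunit Ap4e1 had 0.12 (SE 0.13), the deubiquitinase Usp8 -0.01 (SE 0.07) and the signalosome subunit Cops2 -0.12 (SE 0.06). Tmem62, a membrane protein, had -0.34 (SE 0.09).

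Genes of the nucleus, of RNA and of the cytoskeleton made up the rest. Myef2, a repressor of transcription, had the highest difference among those not called, at 0.35 (log2, SE 0.11), and Wdr76, Cdan1, Mapkbp1, Ctdspl2 and Ccndbp1 were at -0.46, -0.38, -0.24, -0.15 and -0.14 (SE 0.24, 0.16, 0.14, 0.09 and 0.09). Rpap1, Serf2, Eid1 and Zfp106 were at 0.11, 0.12, 0.07 and 0.02 (SE 0.13, 0.08, 0.09 and 0.07). The microtubule genes Tubgcp4, Map1a and Ttbk2 were at -0.07, 0.13 and -0.04 (SE 0.08, 0.24 and 0.09). A change of the size seen in Adal or Fermt1 lies outside the 95% interval of each of these genes.

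**Figure D3:**
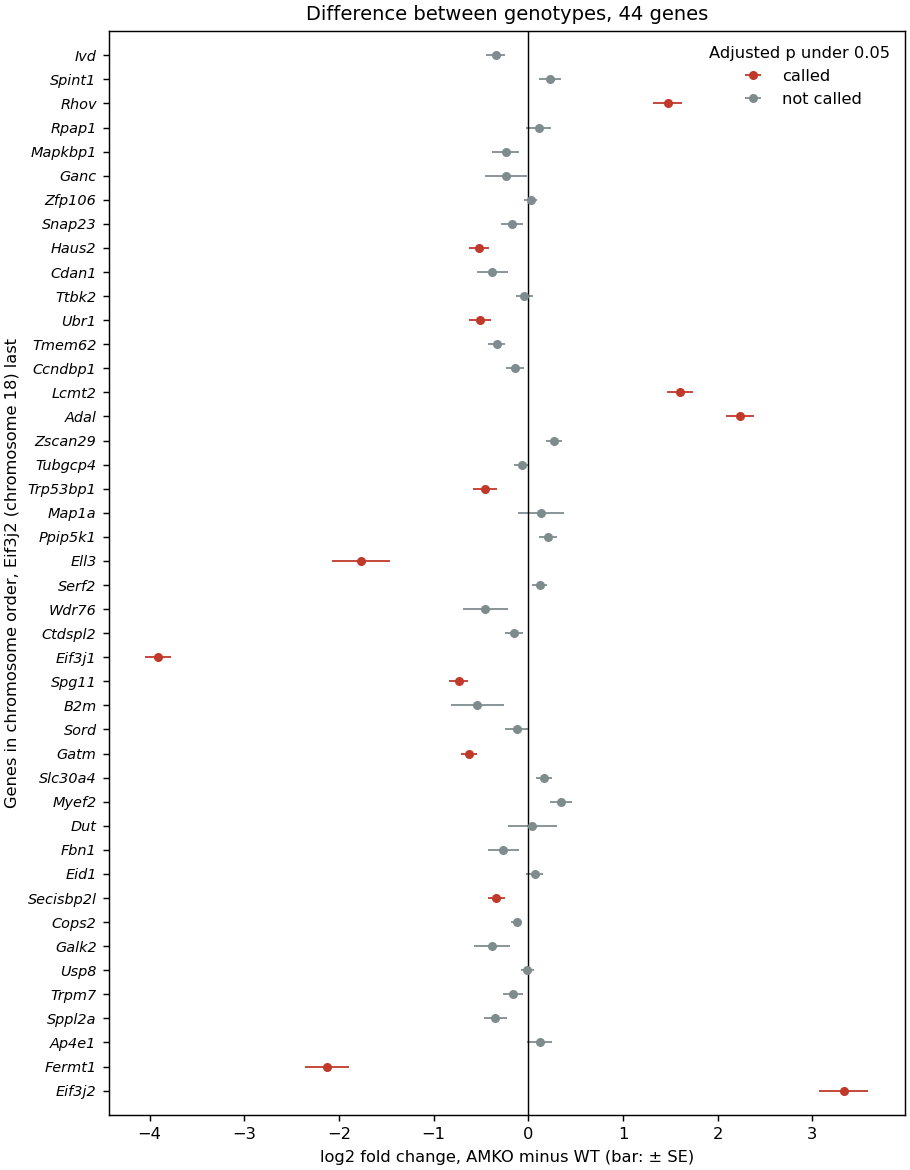
Log2 difference between AMKO and WT for each of the 44 genes fitted, in chromosome order, with a bar of 1 SE to each side, and called genes in a separate colour. Eif3j1, Fermt1, Ell3, Eif3j2, Adal, Lcmt2 and Rhov lie beyond a 2-fold difference, and the other 37 lie within it.

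Per length, the genes covered a wide range of levels. In CPM per kilobase of exon, B2m was the highest, at 337 in WT and 232 in AMKO, followed by Spint1 at 91.9 and 108. Next in WT were Cops2 at 30.9 and Gatm at 26.7, and next in AMKO were Eif3j2 at 31.2 and Cops2 at 28.4. The per-kilobase values of Eif3j1 and Eif3j2 rest on an uncertain split of counts and on exon lengths of 5.83 and 2.379 kb. Map1a was the lowest in WT, at 0.424. On this scale Eif3j1 was at 11.4 in WT and Gatm at 17.3 in AMKO, while Adal was at 0.85 and 4.0, Rhov at 9.79 and 27.1 and Fermt1 at 12.1 and 2.77, in WT and AMKO in turn. Within WT the genes varied about as much as others, and within AMKO they varied less. The median SD of log2 CPM over the 6 libraries was 0.21 in WT and 0.18 in AMKO, against 0.22 and 0.24 over all genes fitted.

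Along the chromosome, the genes span 14.08 Mb, from 118861954 to 132945906 (GRCm38), and Mertk lies at 128698956 to 128802894. Of the 172 genes fitted in that span, 37 were called, 12 of them among the genes described here. Since the genes were chosen by name, their own places say nothing of a pattern along the chromosome. Of the 31 fitted from Ivd to Slc30a4, farther from Mertk, 10 were called (32.3%), and of the 11 from Myef2 to Ap4e1, closer to it, 1 was called (9.09%), namely Secisbp2l, where 5.78% of all genes were called. The called genes were also interleaved with genes near 0. Zscan29 and Tubgcp4 lie between Adal and Trp53bp1, and the differences in this run went in both directions. The part of linked sequence in these differences was not tested.

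**Figure D4:**
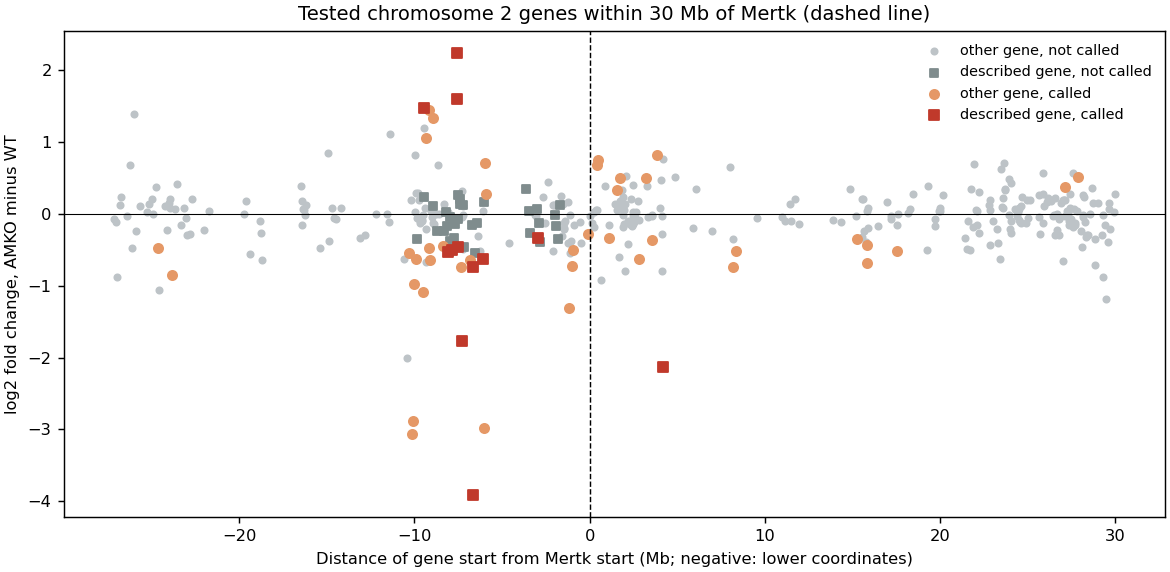
Log2 difference between AMKO and WT of each gene fitted within 30 Mb of Mertk on chromosome 2, against the distance of its start from that of Mertk in Mb, with the genes described here and called genes marked. Large differences in both directions lie beside genes near 0, mostly at 5 to 10 Mb before Mertk.

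Among the other genes of the region the share called was also above that of all genes. Within 10 Mb of Mertk on either side, 40 of 186 genes fitted were called (21.51%), 14 higher and 26 lower, against 5.78% of all genes. Without the genes described here it was 28 of 143 (19.6%). With them included, the share was 15 of 101 (14.85%) within 5 Mb of Mertk and 48 of 257 (18.68%) within 20 Mb. On chromosome 2 beyond 20 Mb of Mertk the share was 5.91%, or 49 of 829. Around Axl on chromosome 7, the other targeted gene, it was 9 of 275 within 10 Mb (3.27%). With WT replicates 4 to 6 as the only WT libraries, the share within 10 Mb of Mertk moved to 7.85%. With WT replicates 1 to 3 alone it was 10.05%. The number of calls over all genes fell from 794 to 167 and 231, in that order. The difference between regions was not tested, and neighbouring genes are not independent.

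In bins of 5 Mb the share called was 26.7% at 115 to 120 Mb, 32.6% at 120 to 125 Mb, 15.7% at 125 to 130 Mb, where Mertk lies, and 13.7% at 130 to 135 Mb. Of these 4 bins the share was highest in the pair before the bin that holds Mertk. Other bins of the chromosome were also high where few genes were fitted. These held 2 of 8 genes at 135 to 140 Mb (25%) and 3 of 19 at 140 to 145 Mb (15.8%). Farther off they held 4 of 10 at 55 to 60 Mb (40%), 3 of 15 at 60 to 65 Mb (20%) and 4 of 23 at 75 to 80 Mb (17.4%).

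**Figure D5:**
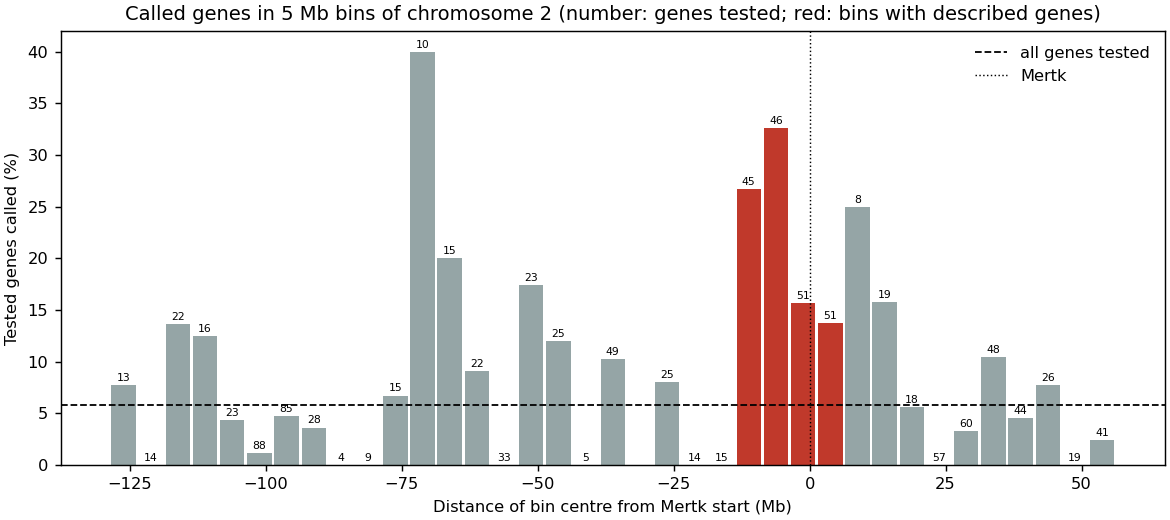
Share of genes fitted that were called, in percent, in 5 Mb bins of chromosome 2 by the distance of the bin's centre from Mertk in Mb, with a dashed line at the share over all genes (5.78%), the number of genes fitted above each bar, and bins that hold the genes described here in red. The bins centred at -11.2 and -6.2 Mb hold 12 of 45 and 15 of 46 called, and the bin at -71.2 Mb, with 4 of 10, is higher.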

How the data were processed

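Pancreas RNA-seq of 6 WT and 6 AMKO libraries was analysed from 1 table of read counts per gene that the authors deposited. Per the submitters' processing notes, HISAT2 2.0.4 and mm10 were used. The sources used here do not give the counter, its annotation or its use of strand and of reads that match several places. Counts were scaled by TMM, filtered with filterByExpr (13743 of 46095 genes kept) and fitted by edgeR 4.0.16 (glmQLFit and glmQLFTest, genotype only, R 4.3.3), and p-values were adjusted by Benjamini-Hochberg over all genes fitted. The SE is the log2 difference divided by the root of F. CPM used TMM library sizes. Library totals ran from 10668637 to 15184371 counts, which limits precision for genes at a few CPM. No libraries of a genotype were repeats, with chi-square per degree of freedom at 9.93 or more.

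The genes and lists were chosen with earlier results of these data known. Library values were given for Mertk, all called or non-overlapping genes, the Eif3j pair, B2m, Gatm, Fbn1, Spint1, Snap23 and Nusap1, and other genes have the log2 difference and SE. Genes outside the set were named only from fixed lists, as called genes within 10 Mb of Mertk, or as Axl, except Serinc4, named as an exon overlap after its values were seen. Some results for lists are not reported here. Alternatives were other scalings and filters, a replicate block, each library left out, WT replicates 1 to 3 or 4 to 6 alone, DESeq2 1.42.0 and limma voom 3.58.1. Positions came from GENCODE M21 (GRCm38) or, for symbols not found there, from RefSeq GRCm38.p6. Together these placed 98.8% of genes fitted. Upstream stretches came from RefSeq's GRCm38.p6 table, which held 43 of the 45 genes. The fit was tested on simulated counts.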

Additional observations from a re-analysis of the deposited data

Results flagged for a closer look

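In 6 of 90 groups of libraries (1 gene in 1 genotype), the highest or lowest library was farther from the nearest other, as a share of the whole range, than Dixon's 95% critical value for 6 libraries allows. Chance gives about 1 in 20 such groups. All values here are log2 CPM with a prior count of 2. Adal was at 2.81 in WT replicate 3, against 2.0 to 2.18 in the other WT libraries, and at 4.69 in AMKO replicate 6, against 4.28 to 4.43. Both remain on their own genotype's side. Eif3j1 was at 1.56 in AMKO replicate 5, below the 2.14 to 2.44 of the others, so that library is the farthest from WT. Ell3 was at 1.05 in AMKO replicate 1, above the -0.17 to 0.04 of the others, and this is the library that overlaps WT. Gatm was at 5.92 in AMKO replicate 1, against 5.61 to 5.72. Slc30a4 was at 6.88 in AMKO replicate 5, below the 7.21 to 7.39 of the others.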

How the results depend on the processing

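The number of genes described here that were called stayed between 9 and 18 over the 22 alternatives (13 as reported), and leaving out single libraries gave 11 to 14. Of the 13 called, 8 kept their call throughout, and none reversed. The number whose libraries did not overlap was 9 to 14. It was not counted with the other filters, the replicate block, DESeq2 or limma voom. The value of 14 came without WT replicate 5 and with WT replicates 1 to 3 alone, where fewer libraries have to be separated. The difference of the Eif3j1 and Eif3j2 sum stayed uncalled throughout. The count over all genes moved more, from 794 to 456 with total-count scaling, 1267 with DESeq2, 1664 with limma voom, 167 with WT replicates 4 to 6 alone and 231 with replicates 1 to 3 alone. Leaving out a single library gave 411 to 1140, with 524 without WT replicate 2, 505 without WT replicate 4, 421 without AMKO replicate 2, 411 without AMKO replicate 3 and 1140 without AMKO replicate 5. The share called within 10 Mb of Mertk was 21.51% as reported and 12.17% with no count filter, where more genes are tested. It was 16.67% with total-count scaling, 26.04% with DESeq2 and 26.34% with limma voom. With WT replicates 4 to 6 and 1 to 3 alone it was 7.85% and 10.05%, and without single libraries 16.93% to 21.93%. The share of calls that were higher in AMKO was 41.7% with TMM, 46.2% with RLE, 35.7% with total counts and 41% with upper quartiles.

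Values near 0 changed sign in 7 of the 31 uncalled genes and in Mertk. Usp8 was at 5e-04 with RLE, 0.0013 with DESeq2, 0.0252 with WT replicates 4 to 6 and -0.0411 to 0.0197 without single libraries. Zfp106 was at -0.0097 with total counts and -0.0302 with WT replicates 1 to 3, and -0.0033 to 0.0542 without single libraries. Dut was at -0.0233 with WT replicates 4 to 6, -0.1303 with limma voom and -0.0789 to 0.1913 without single libraries. Map1a was at -0.0351 with limma voom and -0.0057 to 0.2614 without single libraries. Ttbk2 was at 0.0303 with WT replicates 4 to 6. Rpap1 and Tubgcp4 were at -0.0395 and 0.0312 with WT replicates 1 to 3. Mertk was at 0.1122 with WT replicates 4 to 6 and -0.1945 to 0.1439 without single libraries. The causes were not tested.

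The replicate numbers were not taken to pair the libraries, since the correlation of same-numbered libraries was over 0.1 in 4 of 6 pairs and not in all, and in 0 pairs was each the other's best match. With the replicate number as a block, 910 genes were called, 14 of those described here, and Mertk was at 0.012.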

Other observations

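Other genes near Mertk, outside the set, were called in both directions (edgeR, adjusted over all genes). Anapc1, a scaffold of the anaphase-promoting complex that starts 0.09 Mb before Mertk, was at 78.2 ± 3.31 CPM in WT and 64.3 ± 4.38 in AMKO (SD, n = 6 each), a log2 difference of -0.28 (SE 0.06). Prom2, a membrane protein of epithelial protrusions, was at 22.8 ± 1.97 and 9.22 ± 2.91 CPM, a difference of -1.31 (SE 0.18). Bloc1s6, a subunit of a complex for lysosome-related organelles, was at 14.1 ± 1.71 and 23 ± 1.77 CPM, a difference of 0.70 (SE 0.10). Chac1, a glutathione-degrading enzyme of the stress response, was at 33.6 ± 8.35 and 69.6 ± 16.9 CPM, a difference of 1.05 (SE 0.19). AA467197 had the largest loss of the called genes outside the set within 10 Mb, at 3.82 ± 1.63 and 0.476 ± 0.231 CPM, a difference of -2.98 (SE 0.39). Its level was low, with 26 to 109 counts in the WT and 1 to 9 in the AMKO libraries. In each of these 5, which are examples from the 28 called outside the set within 10 Mb, the WT and AMKO libraries did not overlap. Of the 28, 7 did overlap. The groups did not overlap in 21 of the 143 genes fitted there (14.7%), against 3.54% of all genes fitted.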
